A study of Caenorhabditis elegans with 4 samples.

Results

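LET-418 binding was examined in the large domains of Caenorhabditis elegans chromosome IV that are described as carrying most piRNA loci. That description was not checked by position here. The members are the LET-418 ChIP-seq peaks on IV whose midpoint lies from 4500000 to 7000000, here the left domain, or from 13500000 to 17200000, here the right domain (WS220 coordinates). They were chosen by position alone, and neither score nor replicate list was used. Of the 13690 peaks of the series-wide list, 504 met the rule (3.68%), with 212 in the left domain and 292 in the right. Chromosome IV held 2082 peaks, so 24.2% of its peaks lay in the 35.4% of its length that both domains make up. The remaining 1578 peaks of IV fell into a left arm (916), a middle segment between the domains (640) and a right tip (22).

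Chromatin came from whole worms of the N2 strain, genotype wild type, as a mixed male and hermaphrodite population at the L3 larval stage, grown at 20 °C. There were 2 LET-418 ChIP samples and 2 input DNA samples. The labels do not state whether the ChIP samples were grown as separate cultures. Whole larvae were used, so fewer cells that bind LET-418 at a site and less LET-418 per cell cannot be told apart, and germline and soma were not separated.

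LET-418 belongs to the Mi-2/CHD4 family of chromatin remodellers, ATPases that move nucleosomes, and acts in the NuRD and MEC repressor complexes. In C. elegans it is known for keeping germline genes silent in somatic cells. The piRNAs of the worm are short RNAs bound by the Argonaute PRG-1, which recognises foreign transcripts and transposons in the germline. Most of them are transcribed as many small separate units, each with its own upstream motif, that lie between and within the protein-coding genes of the chromosome IV clusters. In the RefSeq gene table of another assembly, WBcel235, 14714 of 15363 piRNA genes (95.78%) were on IV. That table was used for this count only, since its coordinates are not those of the peaks. The peaks were therefore not set against single piRNA loci or genes, and no peak sequence is shown because no WS220 genome was used here.

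The authors deposited 3 lists of peaks: replicate 1 held 1887 peaks in all, replicate 2 held 19594, and a list for the whole series, here the series-wide list, held 13690. The lists give no read counts, so the depth behind a peak is unknown. The origin of the series-wide list was not given, so it may rest on the same reads as the replicate lists. Overlap and score relations between it and those lists may then be built in. Peaks of a list lie in clusters and are not replicates. P-values and intervals over peaks cover counting error only and do not measure the variation between cultures.

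The piRNA domains were among the sparser parts of chromosome IV, far below its left arm and closer to the middle segment. Series-wide density was 84.8 peaks per Mb in the left domain (95% exact Poisson interval 73.8 to 97.0) and 78.9 in the right domain (70.1 to 88.5). The left arm had 204 peaks per Mb (191 to 217), the middle segment 98.5 (90.98 to 106) and the right tip 74.9 (46.9 to 113). Both domains together had 0.582 times the density of the rest of IV (95% interval 0.525 to 0.644, two-sided exact binomial p = 2.76e-28, adjusted over 4 density comparisons 1.11e-27). These values treat each peak as independent. When the spread between 100-kb bins replaced counting error in a quasi-Poisson fit, the ratio was 0.578, with a wider interval of 0.449 to 0.743. The left arm alone supplied 916 of the 1578 peaks of the rest of IV.

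**Figure D1:**
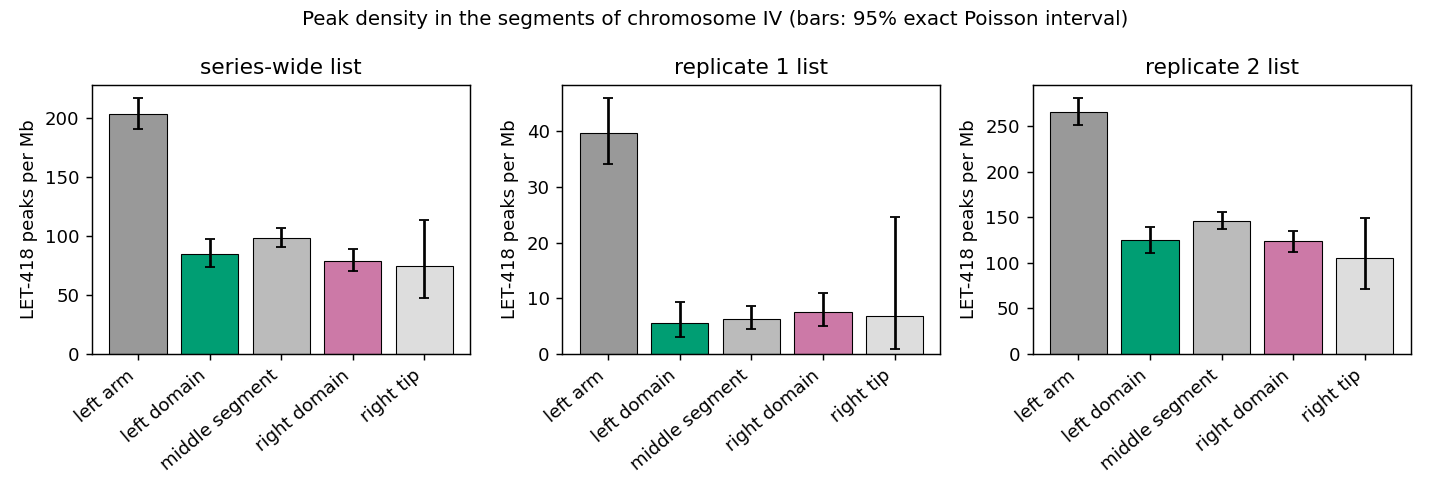
LET-418 peaks per Mb in the 5 segments of chromosome IV, with 1 panel per list and a separate axis in each; bars carry 95% exact Poisson intervals. In all 3 panels the left arm stands highest, at 204, 39.8 and 266 peaks per Mb, and the left and right domains lie near the middle segment.

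Against the middle segment the ratios were closer to 1. The right domain had 0.802 times its density (0.696 to 0.922, exact binomial p = 0.00171, adjusted 0.00342). The left domain had 0.861 times its density (0.734 to 1.01, exact binomial p = 0.0609, adjusted 0.0812), which did not pass the threshold of 0.05. The call for the right domain was lost when the spread between 100-kb bins replaced counting error: the interval widened to 0.627 to 1.03, with an adjusted p of 0.155 in that quasi-Poisson fit. It was also lost with the borders moved by 250 kb either way and with peaks scoring no lower than the median. The call held with peaks whose midpoints lay within 1 kb counted as 1 run (0.806, 0.682 to 0.951, exact binomial adjusted p = 0.0187). It also held in the replicate 2 list alone (0.846, exact binomial adjusted p = 0.00654), but not there in the fit over bins (quasi-Poisson adjusted p = 0.233). The ratio turned to 1.11 (0.654 to 1.87) for peaks called in both replicates and to 1.20 (0.715 to 1.99) in the replicate 1 list alone. The domains did not differ from each other beyond counting error, with a left to right ratio of 1.07 (0.896 to 1.29, exact binomial p = 0.44, adjusted 0.44).

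Both replicate lists placed the left arm far above the domains, but they ordered the domains and the middle segment differently. Replicate 1 had 14 peaks in the left domain, or 5.60 per Mb (3.06 to 9.40), and 28 in the right domain, or 7.57 per Mb (5.03 to 10.9). Its middle segment had 41 peaks, or 6.31 per Mb (4.53 to 8.56), and its left arm 179, or 39.8 per Mb (34.2 to 46.1). Within replicate 1 the domains and the middle segment could not be told apart at these counts. Replicate 2 had 312 peaks in the left domain, or 125 per Mb (111 to 139), and 457 in the right domain, or 124 per Mb (112 to 135). Its middle segment had 146.0 per Mb (137 to 156) and its left arm 266 (251 to 282). The ratio of both domains to the rest of IV was 0.345 in replicate 1 (exact interval 0.242 to 0.481) and 0.643 in replicate 2 (0.592 to 0.699).

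The domains were also sparse beside stretches of the same length over the whole genome, IV included. Among 24 whole stretches of 3.7 Mb, laid from the start of each chromosome, none had a lower series-wide density than the right domain, and their values ran from 80.8 to 300.3 peaks per Mb with a median of 110.0. Among 38 stretches of 2.5 Mb, 3 had a lower density than the left domain, with a median of 123. In replicate 2 the numbers lower were 1 of 24 and 2 of 38, and in replicate 1 they were 6 of 24 and 8 of 38. Some of these stretches cover parts of the domains themselves.

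Within each domain the peaks were patchy. The 25 whole 100-kb bins of the left domain held 1 to 27 series-wide peaks, with a median of 7, and the 37 bins of the right domain held 1 to 29, also with a median of 7. No bin was empty. The variance of the bin counts was 5.50 times their mean in the left domain and 4.09 times in the right domain, against 2.52 times over the 65 bins of the middle segment, where counts ran from 1 to 23. It was higher, at 7.27 times, over the 45 bins of the left arm, and 7.16 times over all whole bins of IV. The differences in patchiness were not tested.

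The densest bin of the left domain was IV 5600001 to 5700000, with 27 series-wide peaks, 3 replicate 1 peaks and 31 replicate 2 peaks. The bin before it held 24, 2 and 21, so these 2 bins together carried 24.1% of the peaks of that domain. A further crowded bin began at 4700001, with 17, 3 and 24 peaks. In the right domain the densest bin was IV 16400001 to 16500000, with 29 series-wide peaks, 4 replicate 1 peaks and 34 replicate 2 peaks. It was followed by the bin from 14600001, with 19, 2 and 20, and the bin from 15000001, with 17, 0 and 29. All 3 lists thus had their highest count of the right domain in the same bin, and replicate 1 had none in the bin from 15000001.

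**Figure D2:**
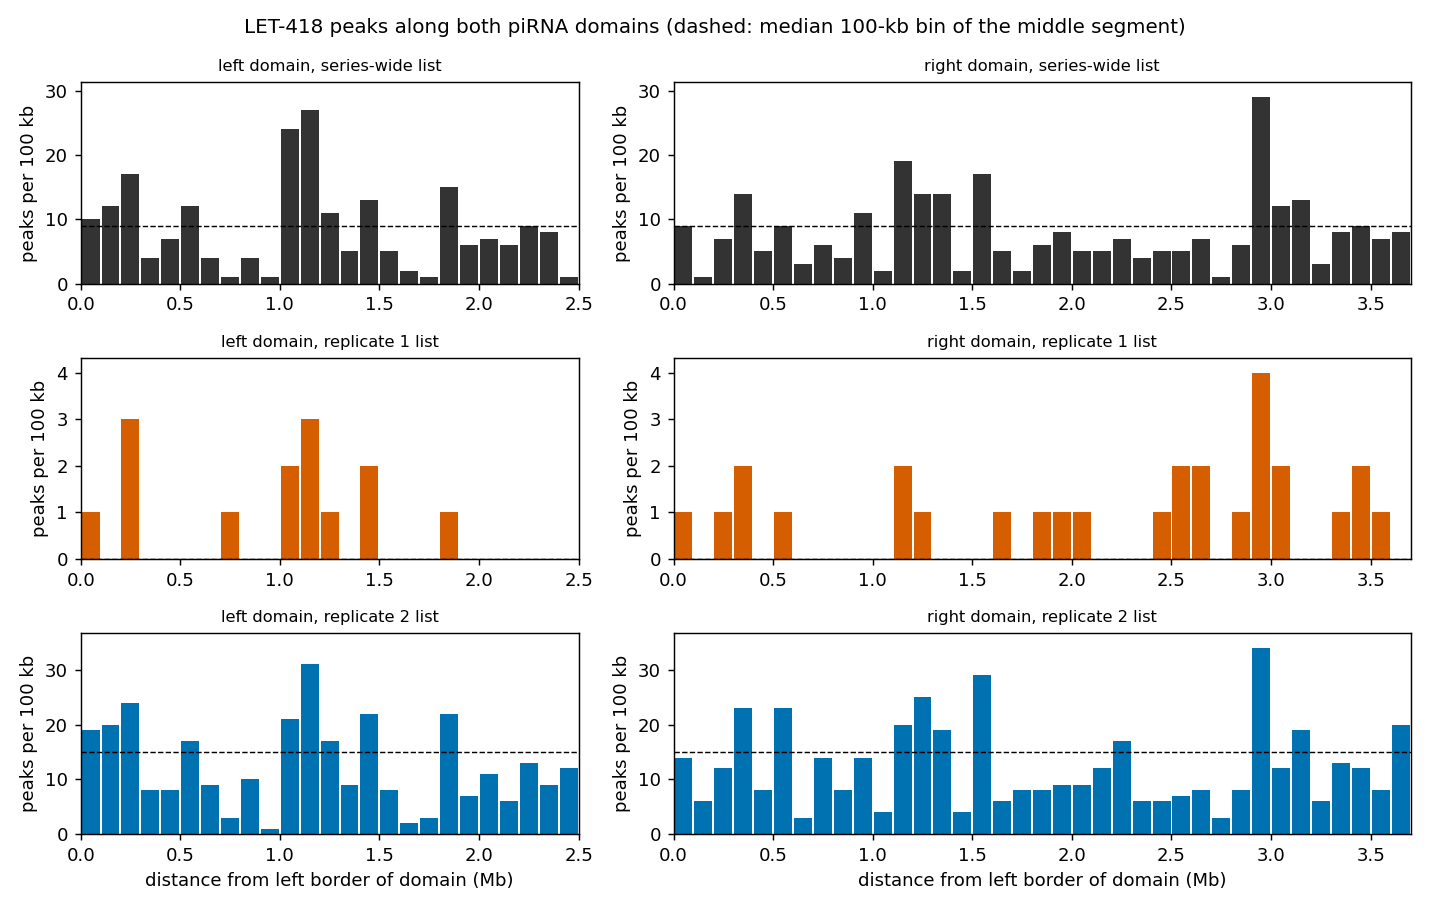
LET-418 peaks per 100-kb bin along both piRNA domains, plotted by distance from the left border of each domain in Mb, with 1 row per list; the dashed line is the median bin of the middle segment. In the series-wide list single bins reach 27 and 29 while the domain medians are 7, and replicate 1 has no peak in 17 of 25 left and 18 of 37 right bins.

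Nearly empty bins lay among these crowded ones. In the left domain 4 bins held a single series-wide peak, the first of them IV 5200001 to 5300000, with 1 peak in replicate 1 and 3 in replicate 2. In the right domain 2 bins held 1 peak, the first of them IV 13600001 to 13700000, with 0 in replicate 1 and 6 in replicate 2. The longest stretch without a member in the left domain ran from the peak that ends at 6157112 to the one that begins at 6294080. In the right domain it ran from 13542148 to 13695402, a distance of 153704 bp between midpoints. The middle segment had a longer one, of 171560 bp.

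The median distance between neighbouring midpoints was 2964.5 bp in the left domain (quartiles 895 and 11064) and 2808.5 bp in the right domain (908 and 11920.0). It was 3403.5 bp in the middle segment and 1435.5 bp in the left arm. Runs joined peaks whose neighbouring midpoints lay no more than 1 kb apart, and distances between peak edges were not used. These runs held 97 of the 212 left-domain peaks (45.8%) and 127 of the 292 right-domain peaks (43.5%). The share was 44.7% in the middle segment and 58.7% in the left arm. The longest run was 9 peaks over 4872 bp at IV 14476272 to 14481143, with scores from 1.61 to 15.76. All 9 were called in replicate 2 and 0 in replicate 1. The left domain had a pair of runs with 6 peaks each, at IV 5654024 to 5657767, with 2 peaks called in replicate 1, and at IV 5751285 to 5755157, with 0. All 6 peaks of either run were called in replicate 2. Over the whole series-wide list 93.3% of peaks were called in replicate 2 and 12.1% in replicate 1. Full counts in replicate 2 and counts of 0 in replicate 1 are thus not particular to the runs. The run with 2 of 6 peaks called in replicate 1 was not tested against that share.

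Most members had moderate scores. The score is the authors' own value per peak, without a stated scale, and is compared here within 1 list only. The median series-wide score was 6.77 in the left domain (quartiles 4.38 and 11.3) and 7.43 in the right domain (4.84 and 12.8). It was 6.86 in the middle segment, 8.67 in the left arm and 7.57 over the whole list. The highest decile of the whole list included 11 of the 212 left-domain peaks (5.19%) and 26 of the 292 right-domain peaks (8.90%). The same decile took 4.53% of the middle segment and 13.2% of the left arm.

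The strongest sites of the left domain sat together near its left end. IV 4720535 to 4720918 had a series-wide score of 45.28, with 9.92 in replicate 1 and 138.51 in replicate 2. IV 4725419 to 4725737 had a series-wide score of 42.88, with 13.72 in replicate 1 and 133.95 in replicate 2. IV 4727872 to 4728201 had a series-wide score of 38.36, with 9.83 in replicate 1 and 149.45 in replicate 2. These 3 peaks were also the 3 highest of the left domain in either replicate list. The next 2 by series-wide score, IV 6117757 to 6118083 (34.49) and IV 4749935 to 4750174 (30.45), had replicate 2 scores of 94.7 and 84.2 and were not called in replicate 1.

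In the right domain the strongest sites were spread out, and all 5 of the highest were called in both replicates. The top one, IV 15107131 to 15107587, had a series-wide score of 49.67, with 8.42 in replicate 1 and 114.69 in replicate 2. IV 16845310 to 16845758 followed at 47.79, and its replicate scores of 17.95 and 140.38 were the highest of the right domain in each replicate. IV 15530560 to 15530825 had a series-wide score of 44.44, with 12.76 in replicate 1 and 103.88 in replicate 2. IV 15983987 to 15984531 had a series-wide score of 43.06, with 10.81 and 117.42. IV 14767738 to 14767977 had a series-wide score of 38.03, with 14.27 and 119.07. It tied with IV 16181121 to 16181487, which had 9.80 in replicate 1 and 56.18 in replicate 2, and was taken as the fifth because it comes first along the chromosome. The order within the top 5 thus differed between the lists.

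**Figure D3:**
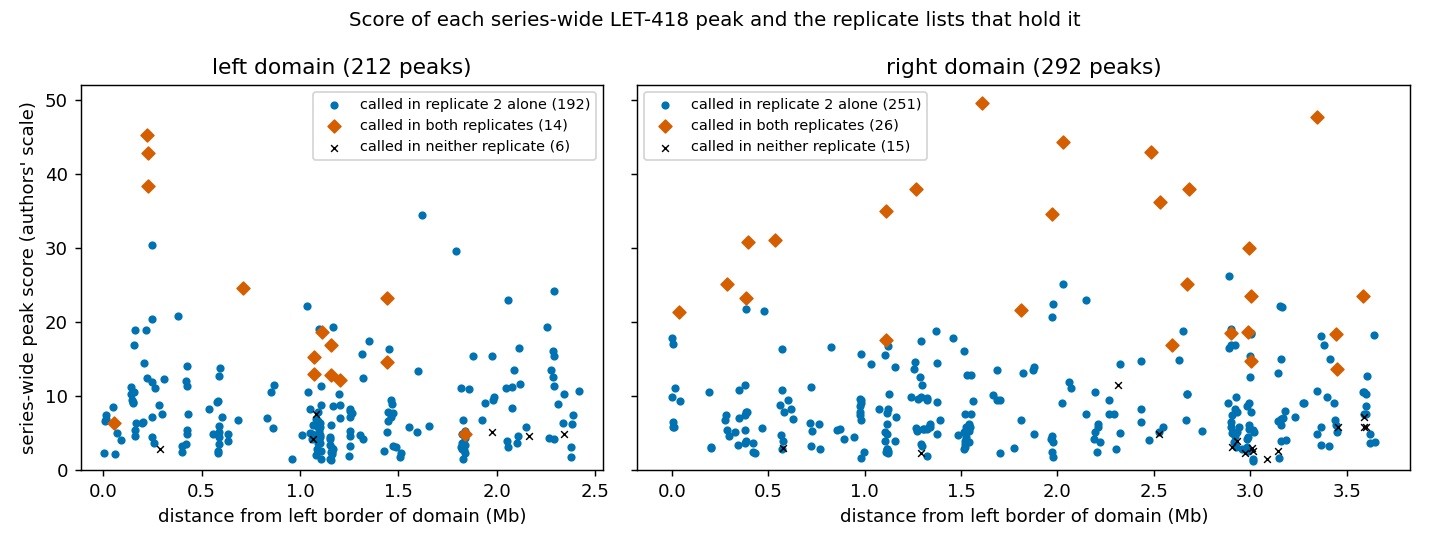
Series-wide score of each of the 504 members by distance from the left border of its domain in Mb, marked by the replicate lists that hold it. Diamonds (called in both replicates) make up all points above a score of 30 in the right domain, the 3 highest left-domain points stand together near 0.2 Mb, and crosses (neither replicate) stay at or below 11.48.

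Member peaks were narrow. The median width was 238.5 bp in the left domain (quartiles 184 and 327) and 253.5 bp in the right domain (192 and 375.5), against 246 bp over the whole list. Peaks over 1 kb numbered 1 of 212 in the left domain and 9 of 292 in the right domain, where the whole list had 393 of 13690 (2.87%). The widest left-domain peak was IV 4657789 to 4659044, with 1256 bp and a score of 16.99, and the next was IV 6096943 to 6097922, with 980 bp. The widest right-domain peak was IV 16491034 to 16493463, with 2430 bp, in the densest bin of that domain. It had a series-wide score of 29.99 and a replicate 2 score of 91.47, and overlapped a pair of replicate 1 peaks with low scores of 1.87 and 2.62. IV 16167824 to 16170250 was nearly as wide at 2427 bp, had a lower series-wide score of 10.35, and was called in replicate 2 (48.96) and not in replicate 1.

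Peaks just inside and just outside the domain borders had scores from 2.29 to 17.88. At the left border of the left domain the first member, IV 4505878 to 4506034, had a score of 2.29, and the nearest peak outside, IV 4480494 to 4480791, had 2.59. At its right border the last member, IV 6919425 to 6919580, had 10.71, and the nearest outside, IV 7016516 to 7016720, had 2.82 and was called in neither replicate. In the right domain the first member, IV 13502872 to 13503278, had 17.88, and IV 13464450 to 13464720 outside it had 9.83. The last member there, IV 17148160 to 17148310, had 3.87, and IV 17222852 to 17223039 outside it had 7.34.

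Most members were called in replicate 2 and few in replicate 1. Over the whole series-wide list 93.3% of peaks overlapped a replicate 2 peak by at least 1 bp, 12.1% overlapped a replicate 1 peak, and 6.57% overlapped neither. In the left domain 206 of 212 members were called in replicate 2 (97.2%, 95% Wilson interval 93.96 to 98.7) and 14 in replicate 1 (6.60%, 3.97 to 10.8). In the right domain 277 of 292 were called in replicate 2 (94.9%, 91.7 to 96.9) and 26 in replicate 1 (8.90%, 6.15 to 12.7). Neither replicate held 6 left-domain and 15 right-domain members. Every member called in replicate 1 was also called in replicate 2. The left and right domains did not differ in recovery beyond counting error, with an odds ratio of 0.723 for replicate 1 (0.340 to 1.48, Fisher's exact p = 0.406) and 1.86 for replicate 2 (0.667 to 5.95, Fisher's exact p = 0.261; both adjusted over 6 comparisons 0.484).

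Compared with the rest of IV, members were recovered less often in replicate 1 and more often in replicate 2. In replicate 1, 40 of 504 members (7.94%) and 195 of 1578 other peaks (12.4%) were called, an odds ratio of 0.611 (0.417 to 0.879, Fisher's exact p = 0.00589, adjusted 0.0177). At a matched score decile the replicate 1 odds ratio was 0.631 (Mantel-Haenszel interval 0.401 to 0.995), which missed the threshold after adjustment. The call was also lost in Fisher's exact test when 50% of a series-wide peak needed to be covered (0.671, adjusted p = 0.328) and with peaks scoring no lower than the median (0.644, adjusted p = 0.148). In replicate 2, 483 of 504 members (95.8%) and 1446 of 1578 other peaks (91.6%) were called, an odds ratio of 2.10 (1.30 to 3.54, Fisher's exact p = 0.00116, adjusted 0.00699). It was 2.45 at matched score (Mantel-Haenszel interval 1.51 to 3.98) and still passed, but missed the threshold when 50% of both peaks needed to be covered (1.38) and with peaks scoring no lower than the median (3.90). In the quasi-binomial fit over 100-kb bins the interval was 0.412 to 0.914 for replicate 1 and 1.21 to 3.64 for replicate 2, each just past the threshold.

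The left arm stood apart from the other segments in both replicates. It had 16.6% of its peaks called in replicate 1 and 89.2% in replicate 2, whereas the middle segment had 6.41% and 94.8%. Against the middle segment alone, members had an odds ratio of 1.26 for replicate 1 (0.780 to 2.03, Fisher's exact p = 0.353) and 1.25 for replicate 2 (0.692 to 2.31, Fisher's exact p = 0.484), each with an adjusted p of 0.484. These intervals still allow moderate differences in either direction.

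**Figure D4:**
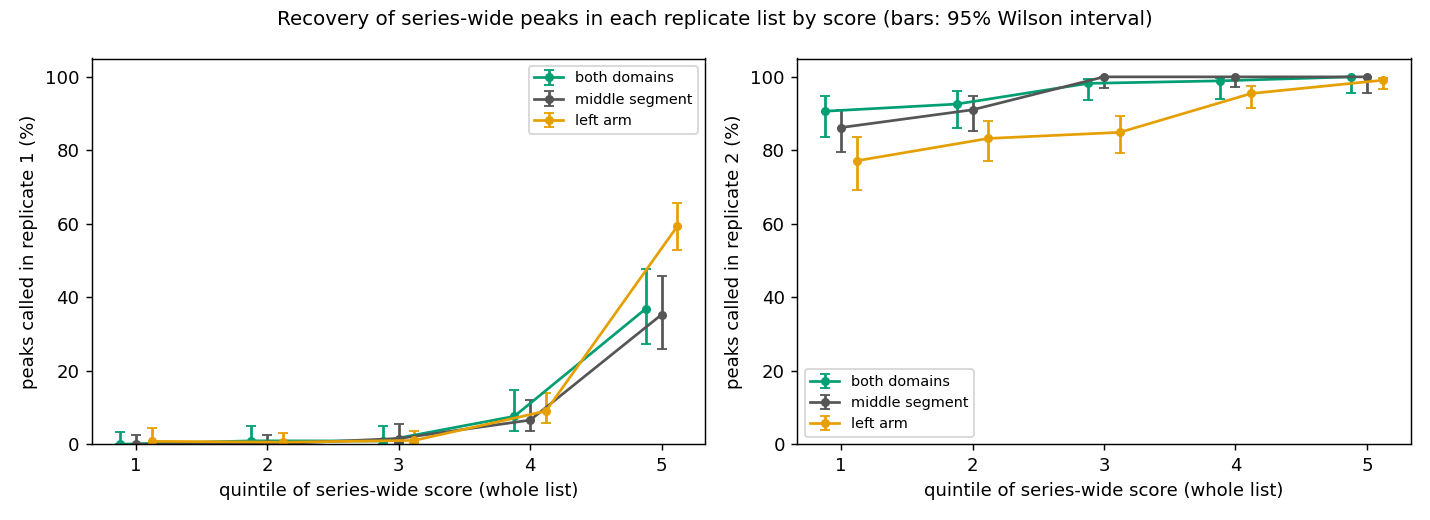
Percentage of series-wide peaks called in replicate 1 (left panel) and replicate 2 (right panel) by quintile of the series-wide score, for both piRNA domains, the middle segment and the left arm, with 95% Wilson intervals. In the highest quintile 36.9% of domain peaks, 35.3% of middle-segment peaks and 59.4% of left-arm peaks were called in replicate 1, and in the lowest quintile 90.7%, 86.2% and 77.2% were called in replicate 2.

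Replicate 1 calls among the members, as over the whole list, were concentrated at high series-wide scores. Those scores may rest on the same reads, so this relation is a description only. Of the 84 members in the highest score quintile of the whole list (15.31 and above), 31 were called in replicate 1 (36.9%, Wilson 27.4 to 47.6), and all 84 were called in replicate 2. Over the whole list that quintile had 50.4% called in replicate 1 and 99.6% in replicate 2. In the lowest quintile (up to 4.13) 0 of 107 members were called in replicate 1, which allows a share of up to 2.80% (3 counts of the total), and 97 in replicate 2. The whole list had 0.183% and 86.7% there. Members called in replicate 1 had a median series-wide score of 23.4 and a median width of 421 bp, against 6.72 and 237.5 bp for the others. The 21 members in neither replicate had a median score of 4.17. The highest of these were IV 15814921 to 15815090 in the right domain, with 11.48, and IV 5582825 to 5582987 in the left domain, with 7.57.

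All 42 replicate 1 peaks in the domains overlapped both a replicate 2 peak and a series-wide peak. On the whole of IV 263 of 264 replicate 1 peaks overlapped replicate 2 and all 264 the series-wide list. Their replicate 1 scores ran from 1.53 to 13.72 in the left domain, with a median of 3.75, and from 1.53 to 17.95 in the right domain, with a median of 5.05. Over the whole replicate 1 list the median was 5.32. The weakest left-domain call, IV 5702294 to 5702448, scored 1.53 in replicate 1 and overlapped a replicate 2 peak of 24.07. Between the peaks ending at 14034399 and beginning at 14610743 replicate 1 had none, its longest empty stretch in the right domain.

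**Figure D5:**
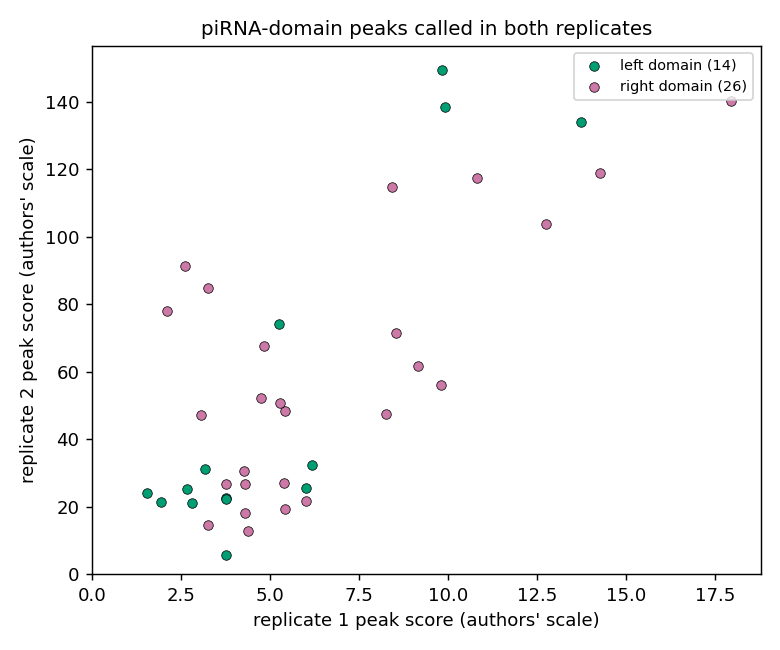
Replicate 2 score against replicate 1 score (authors' scales, axes from 0) for the 40 members called in both replicates, 14 in the left domain and 26 in the right. The 3 left-domain points above 130 in replicate 2 are the neighbouring sites near the left end of that domain, and 3 right-domain points with low replicate 1 scores (2.09, 2.62 and 3.26) have replicate 2 scores from 78.11 to 91.47.

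A high replicate 2 score did not always come with a replicate 1 call. Members in both replicates had replicate 2 scores from 5.77 to 149.45, with a median of 47.4, and those called in replicate 2 alone had 1.80 to 110.89, with a median of 14.8, so the ranges overlapped widely. The replicate 2 peak at IV 13884259 to 13884903 scored 110.89, above all but 7 of the replicate 2 peaks in the domains, and had no replicate 1 counterpart. Its series-wide score was 21.82. The peak at IV 17140327 to 17141415 scored 92.02 in replicate 2 and 18.29 in the series-wide list and was likewise absent from replicate 1. Over the 40 shared members, which come from the same 2 libraries, replicate 1 and replicate 2 scores gave Spearman's rho = 0.583. The value varied between segments, and these differences were not tested. It was 0.717 over the 14 peaks of the left domain and 0.457 over the 26 of the right domain. Over the 151 shared peaks of the left arm it was 0.582, near the value of both domains. Over the 41 shared peaks of the middle segment it was 0.160, and over the 194 of the rest of IV 0.470. Peaks missing from either replicate list do not enter these values.

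Replicate 2 also held peaks in the domains that the series-wide list lacked. Of its 312 left-domain peaks 116 had no series-wide counterpart, and of its 457 right-domain peaks 182 had none. The overlapping shares were 62.8% (57.3 to 67.997) and 60.2% (55.6 to 64.6), next to 59.9% in the middle segment and 68.0% in the left arm. Over the whole of IV 1074 of 2946 replicate 2 peaks were unmatched and 63.5% overlapped, so the domains lay near the share of their chromosome. The unmatched peaks were weak, with median replicate 2 scores of 5.08 in the left domain and 5.41 in the right domain, against 16.8 and 15.4 for the matched ones. The highest-scoring unmatched peaks were IV 15259639 to 15259848 (17.73) and IV 14464147 to 14464325 (16.96), both in the right domain.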

How the data were processed

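Chromatin was fixed with EGS and formaldehyde, sonicated and precipitated with a polyclonal LET-418 antibody raised in rabbit, per the labels' protocols. Peaks were called with MACS on WormBase WS220, per the file headers and source column; BWA and ce10 come from the submitters' processing notes. The threshold, versions, use of input and origin of the series-wide list were not given in the sources used here. The score of each peak is used as deposited. No list was filtered. The end of IV was taken as the end of its last peak (17493793). Densities were compared by two-sided exact binomial tests given the lengths, recovery by Fisher's exact test, with Benjamini-Hochberg adjustment within each family. Score matching used a Mantel-Haenszel odds ratio over 10 deciles. A quasi-Poisson or quasi-binomial fit over whole 100-kb bins, with dispersion of at least 1, was added after the data were seen. Procedures were tested on simulated data. Regions named are, per domain, the 5 highest-scoring, the 2 widest, those at the borders, the densest and sparsest bins, the longest gap and run, and the highest-scoring member in neither replicate; the other crowded bins, and the replicate 1 and replicate 2 peaks named beside them, were picked with their values in view. The members, segments and comparisons were chosen with earlier results of these data known. Python 3.11.15, NumPy 2.4.6, pandas 2.3.3, SciPy 1.17.1 and Matplotlib 3.10.9 were used.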

Additional observations from a re-analysis of the deposited data

How the results depend on the processing

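No paired analysis was possible because the peak files carry nothing for the inputs. The density of both domains against the rest of IV stayed below 1 and past the threshold in every alternative, from 0.343 to 0.643 with either replicate list alone. Against the middle segment the right domain (0.802) missed the threshold with borders moved inwards (0.855) or outwards (0.860), at or above the median score (0.852) and in the fit over bins (0.802); it turned to 1.11 for peaks in both replicates and lay between 0.846 and 1.20 with either replicate alone. The right domain still passed with peaks whose midpoints lay within 1 kb counted as 1 run (0.806) and in replicate 2 without the bins (0.846). The left domain (0.861) lay between 0.855 and 0.888 with either replicate alone, and passed only in replicate 2 without the bins (0.855). The ratio of left to right (1.07) turned to 0.983 with borders moved inwards, 0.963 at or above the median score, 0.797 for peaks in both replicates, and 0.740 to 1.01 with either replicate alone. Replicate 1 recovery against the rest (0.611) missed the threshold at 0.671 with either 50% rule, 0.644 for the higher-scoring part and 0.631 at matched score. Replicate 2 recovery against the rest (2.10) missed it at 1.38 with 50% of both peaks covered and at 3.90 at or above the median score. Against the middle segment, replicate 1 recovery turned to 0.991 at matched score, and replicate 2 recovery to 0.960 with 50% of the series-wide peak covered and to 0 at or above the median score, where no middle-segment peak was missed. Left against right in replicate 2 turned to 0.780 with 50% of both peaks covered and 0.648 at or above the median score. The causes were not tested. Leaving out a replicate was not run for recovery, which uses 1 replicate at a time. Median score, width and gap of the members stayed within their 95% intervals when borders moved.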

Other observations

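Counts in the left and right parts of each domain are given without a test. Cut at its midpoint, the left domain held 126 members in its left part and 86 in its right part, of which 11 and 3 were called in replicate 1. The right domain held 147 and 145 members, of which 10 and 16 were called in replicate 1. Over the whole series-wide list 12.1% of peaks were called in replicate 1, and the counts in the parts are small. Stronger members tended to be wider: series-wide score and width had a Spearman's rho of 0.469 over the 504 members, which share the same libraries, against 0.386 in the middle segment and 0.531 in the left arm.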
